A study of Mus musculus with 5 samples.

Results

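Long noncoding RNA (lncRNA) genes that stand apart from protein-coding genes were examined for CREB and H3K4 signal in the fetal mouse testis. A gene was taken when the RefSeq annotation of mm10 (GRCm38.p6) types it as lncRNA, places it on an assembled chromosome and puts both of its ends more than 5000 bp from any protein-coding gene end. The rule was met by 8882 of 12727 lncRNA genes, out of 49943 annotated genes of all types, and it used no measured value. Each of these isolated lncRNA genes contributed 2 regions, 1000 bp either side of each end, and was counted with a peak when a peak overlapped either region by at least 1 bp. Of the 8882 genes, 2163 lay wholly inside the body of a protein-coding gene, 234 overlapped one in part and 6485 lay outside.

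The profiles came from CUT&RUN, where a nuclease tethered to an antibody frees the DNA fragments near the antibody's target. CREB was profiled in male gonads at 3 embryonic ages, from E13.5 over E16.5 to E18.5, and H3K4, a histone residue whose methylation state the labels leave out, at the last of these, with 1 library per antibody and stage. An IgG library of the series was not analysed here. The labels give tissue, antibody and stage, and no strain or genotype. With 1 library per group no value has a replicate check and no test between groups can be made, so each share carries an exact (Clopper-Pearson) 95% binomial interval, which covers counting error only. All cells of the dissociated gonad entered an assay together, so a peak in few cells and a weak peak in many cannot be told apart.

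CREB is the transcription factor that cAMP signalling activates through phosphorylation by protein kinase A, and it binds the cAMP response element (CRE), whose full palindrome is TGACGTCA and whose shorter form, here called the partial site, is TGACG. lncRNA genes are transcribed by RNA polymerase II like protein-coding genes, and trimethylation of H3K4 is the usual mark of their active starts. Several well known members act where they are made, such as Kcnq1ot1 and Airn, which silence neighbouring genes of an imprinted domain, and Xist, which coats the inactive X chromosome.

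The E13.5 list had 862 CREB peaks, the E16.5 list 3528 and the E18.5 list 2957, and the H3K4 list had 21211 peaks. Usual peak widths were 150, 630, 160 and 210 bp in the same order. Their depth is unknown. As a check of the tissue, 7 of 16 marker genes of fetal testis cells had an H3K4 peak at an end, where 52.7% of all protein-coding genes did, so the count does not set these markers apart. They included Sox9, Amh and Dhh of Sertoli cells, Nr5a1, Star and Cyp11a1 of steroidogenic cells and Dazl of germ cells. Among those with none were Wt1, Gata4, Hsd3b1, Cyp17a1, Insl3, Ddx4, Tcf21 and Nr2f2. Of 11 markers of other tissues 3 had one, among them Apoa2 of liver and Foxl2 of ovary.

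Promoter windows of 8 members are shown because they carry the letters, or the lack of letters, that the results below refer to. They run from 250 bases before to 50 bases after the gene start, 5′ to 3′ along the gene, and were taken from RefSeq (GRCm38.p6). Capitals mark the full CRE TGACGTCA and the partial site as TGACG or, read on the other strand, CGTCA. The window of 1810044D09Rik is chr6:91440737-91441036 (plus strand), that of 5730405O15Rik chrX:13041765-13042064 (plus), that of Gm46589 chr17:57095870-57096169 (plus) and that of 9430091E24Rik chr8:111145449-111145748 (minus). The window of Kcnq1ot1 is chr7:143296498-143296797 (minus), that of Meg3 chr12:109540746-109541045 (plus), that of Airn chr17:12741061-12741360 (plus) and that of Gm14321 chr2:167777241-167777540 (plus).
1810044D09Rik: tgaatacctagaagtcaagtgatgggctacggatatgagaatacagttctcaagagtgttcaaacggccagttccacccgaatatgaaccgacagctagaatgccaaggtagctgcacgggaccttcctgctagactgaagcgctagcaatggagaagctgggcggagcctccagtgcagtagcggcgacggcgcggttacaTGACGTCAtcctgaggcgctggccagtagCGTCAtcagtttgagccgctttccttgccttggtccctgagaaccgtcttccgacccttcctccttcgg
5730405O15Rik: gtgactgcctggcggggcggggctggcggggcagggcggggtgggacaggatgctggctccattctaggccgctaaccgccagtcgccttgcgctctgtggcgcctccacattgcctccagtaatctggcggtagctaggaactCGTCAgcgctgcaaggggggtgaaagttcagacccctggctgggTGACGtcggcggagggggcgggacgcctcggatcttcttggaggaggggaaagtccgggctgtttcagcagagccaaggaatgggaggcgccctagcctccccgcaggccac
Gm46589: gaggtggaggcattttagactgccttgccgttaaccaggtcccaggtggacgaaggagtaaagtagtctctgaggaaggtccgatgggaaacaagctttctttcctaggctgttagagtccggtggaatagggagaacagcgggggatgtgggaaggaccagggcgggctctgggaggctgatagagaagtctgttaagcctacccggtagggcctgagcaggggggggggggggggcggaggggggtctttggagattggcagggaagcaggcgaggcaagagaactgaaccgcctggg
9430091E24Rik: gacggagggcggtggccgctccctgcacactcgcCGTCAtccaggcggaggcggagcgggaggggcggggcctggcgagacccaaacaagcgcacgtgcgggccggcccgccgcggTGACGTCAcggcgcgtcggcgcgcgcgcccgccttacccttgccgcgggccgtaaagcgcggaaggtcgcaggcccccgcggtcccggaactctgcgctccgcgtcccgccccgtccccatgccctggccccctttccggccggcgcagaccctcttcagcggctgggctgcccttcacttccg
Kcnq1ot1: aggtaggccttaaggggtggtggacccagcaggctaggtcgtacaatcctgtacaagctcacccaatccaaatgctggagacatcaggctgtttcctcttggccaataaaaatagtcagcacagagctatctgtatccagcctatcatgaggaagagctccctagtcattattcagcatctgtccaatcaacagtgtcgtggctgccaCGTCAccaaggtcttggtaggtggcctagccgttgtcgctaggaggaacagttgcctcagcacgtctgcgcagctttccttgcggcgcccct
Meg3: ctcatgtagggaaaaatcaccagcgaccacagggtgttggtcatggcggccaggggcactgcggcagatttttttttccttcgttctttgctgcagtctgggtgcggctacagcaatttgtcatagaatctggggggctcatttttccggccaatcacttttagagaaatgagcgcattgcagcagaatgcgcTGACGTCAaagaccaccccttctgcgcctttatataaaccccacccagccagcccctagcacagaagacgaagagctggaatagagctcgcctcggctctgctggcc
Airn: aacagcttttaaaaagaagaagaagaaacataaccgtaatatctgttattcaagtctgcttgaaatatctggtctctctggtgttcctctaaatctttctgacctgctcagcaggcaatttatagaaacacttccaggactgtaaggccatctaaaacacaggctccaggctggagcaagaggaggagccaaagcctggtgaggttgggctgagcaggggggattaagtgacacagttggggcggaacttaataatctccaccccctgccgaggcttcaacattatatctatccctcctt
Gm14321: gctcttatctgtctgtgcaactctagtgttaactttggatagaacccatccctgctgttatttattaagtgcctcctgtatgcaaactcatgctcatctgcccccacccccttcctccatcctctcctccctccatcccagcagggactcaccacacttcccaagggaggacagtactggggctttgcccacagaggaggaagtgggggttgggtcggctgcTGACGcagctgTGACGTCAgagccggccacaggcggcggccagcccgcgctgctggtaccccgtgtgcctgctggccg

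CREB peaks at the ends of isolated lncRNA genes were rare at every stage. A peak was found at 10 of 8882 genes at E13.5, or 0.113% (0.054 to 0.207), where the share over all 49943 genes was 2.02%. At E16.5 there were 87 genes, or 0.98% (0.785 to 1.21), against 7.88% over all genes. At E18.5 there were 47, or 0.529% (0.389 to 0.703), against 6.67% over all genes. The isolated genes therefore lay below the background of all genes in each list. The rule keeps outer ends of protein-coding genes out of their regions, while regions of other lncRNA genes can hold such ends. The part of this selection in the lower shares was not tested. H3K4 peaks were found at 571 isolated genes, 6.43% (5.93 to 6.96), against 28.7% over all genes. In all, 92 isolated lncRNA genes had CREB in at least 1 list, 1.04% (0.836 to 1.27), where 8.80% of all genes did.

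The 3845 lncRNA genes nearer to a protein-coding gene end had larger shares than the isolated genes and smaller shares than protein-coding genes. In stage order, 2.76%, 10.8% and 9.18% of these non-isolated lncRNA genes had CREB, and 41.8% had H3K4. Of 21887 protein-coding genes 3.94%, 14.9% and 12.9% had CREB and 52.7% had H3K4, and the shares with CREB in any list were 12.1% and 16.7% for these classes. Over all genes, pseudogenes were lower still than isolated lncRNA genes, with 0.0377% (0.0103 to 0.0965), 0.311% (0.214 to 0.437) and 0.179% (0.108 to 0.28) of 10609 at the 3 CREB stages. No distance rule was applied to the pseudogenes.

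A lower CREB share was also seen when only genes with H3K4 were compared. Among isolated lncRNA genes with H3K4, CREB was present at 1.58% (0.723 to 2.97) in the E13.5 list, 10.9% (8.43 to 13.7) in the E16.5 list and 7.01% (5.05 to 9.42) in the E18.5 list. The shares among the 1608 non-isolated lncRNA genes with H3K4 were 6.47% (5.31 to 7.78), 23.8% (21.7 to 25.9) and 20.5%, in stage order. Among 11534 protein-coding genes with H3K4 they were 7.20% (6.73 to 7.68), 27% (26.1 to 27.8) and 23.4% (22.6 to 24.2). The intervals of the isolated genes did not overlap those of either other class at any stage, which is a description of these libraries and not a test between classes. The limit that the isolation rule sets on which gene ends a region can hold applies to these shares too. Without H3K4, 26 of 8311 isolated lncRNA genes had CREB in any list (0.313%, 0.204 to 0.458), against 1.65% (1.17 to 2.27) of non-isolated lncRNA genes and 1.79% (1.54 to 2.06) of protein-coding genes. With H3K4, CREB in any list was found at 11.6% (9.05 to 14.5) of 571 isolated lncRNA genes, against 14.5% (9.93 to 20.2) of 200 pseudogenes. The order of these classes thus turned among genes with H3K4, with overlapping intervals. Pseudogenes were taken at any distance from protein-coding genes, so the 2 sets are not alike.

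**Figure D1:**
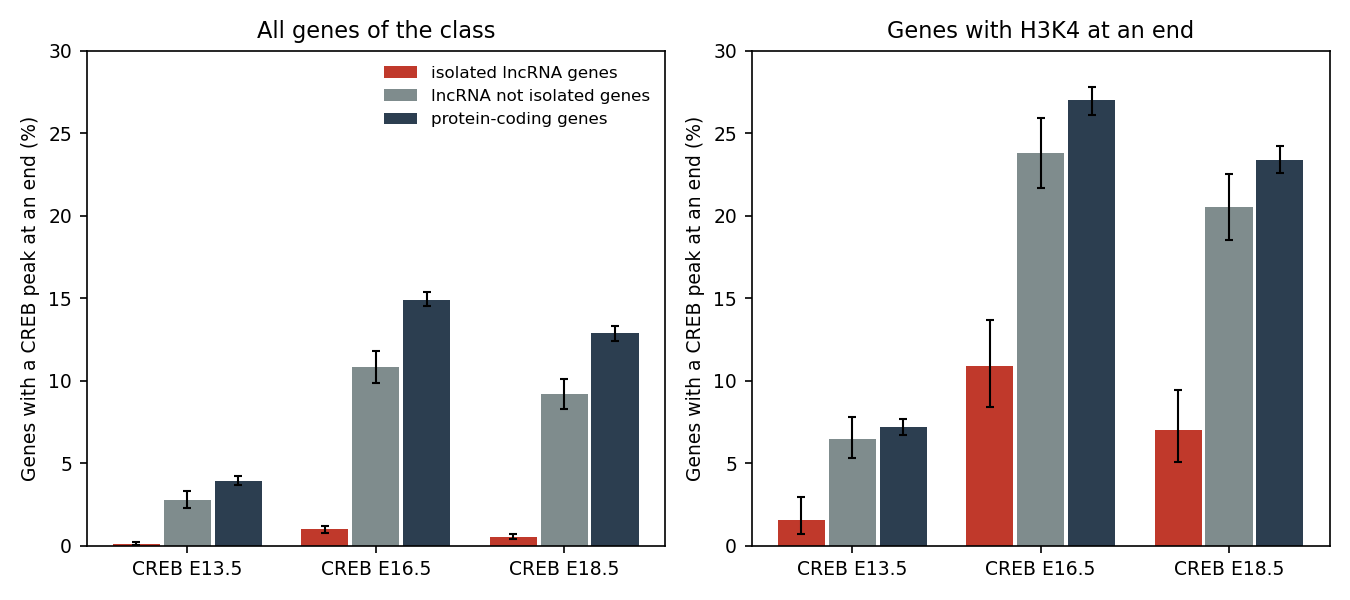
Share of genes with CREB at either end (percent, y axis; regions of 1000 bp on both sides) in each CREB list (x axis), for isolated lncRNA genes, lncRNA genes that are not isolated and protein-coding genes; bars are shares and lines exact 95% binomial intervals. Isolated lncRNA genes are lowest in each list, at 0.113%, 0.98% and 0.529% over all genes (left) and at 1.58%, 10.9% and 7.01% among genes with H3K4 (right).

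The CREB share of isolated lncRNA genes was lower the farther they lay from a protein-coding gene end. Of 1239 genes between 5000 and 10000 bp away, 27 had CREB in any list, 2.18% (1.44 to 3.15). The share was 1.67% (1.07 to 2.47) from 10000 to 20000 bp, 1.05% (0.667 to 1.57) from 20000 to 50000 bp and 0.599% (0.274 to 1.13) from 50000 to 100000 bp. Beyond 100000 bp it was 0.358% (0.164 to 0.678), with 9 of 2514 genes. H3K4 shares over the same groups, near to far, were 11.6%, 7.24%, 8.08%, 4.99% and 2.82%, which is not a steady order. Among genes with H3K4 the CREB shares were 16% (10.4 to 23.0), 16.3% (9.82 to 24.9), 9.04% (5.26 to 14.3), 9.33% (3.84 to 18.3) and 4.23% (0.88 to 11.9). The last rested on 3 of 71 genes, and its interval overlapped that of the nearest group. The part of H3K4 in the trend was not tested. All 10 genes with CREB at E13.5 lay within 50000 bp of a protein-coding gene end, with 3, 4 and 3 of them in the groups up to 10000, 20000 and 50000 bp.

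**Figure D2:**
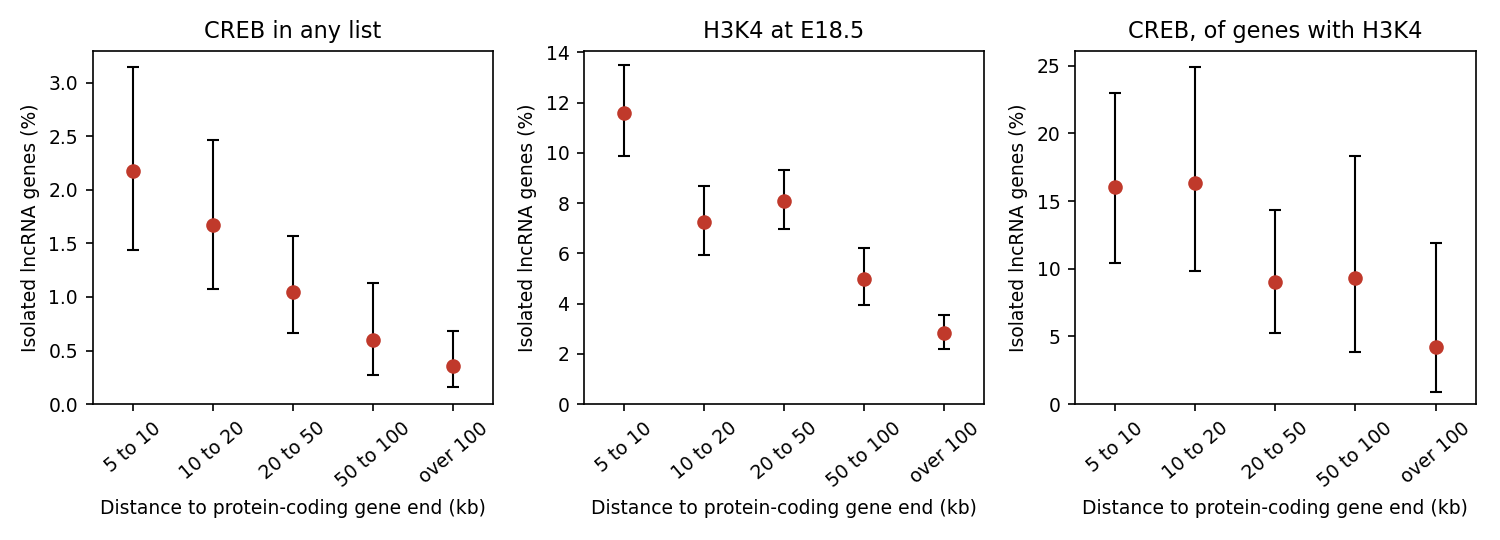
Share of isolated lncRNA genes (percent, y axis) with CREB in any list (left), with H3K4 (middle) and with CREB among genes with H3K4 (right), by distance from the nearest protein-coding gene end in kb (x axis); points are shares and lines exact 95% binomial intervals. The CREB share runs from 2.18% in the nearest group to 0.358% beyond 100 kb, and the H3K4 share from 11.6% to 2.82%.

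Near the threshold of the rule, the CREB-marked genes just inside were Gm33560 at 5039 bp, Gm38959 at 5108 bp and Gm32518 at 5367 bp, each with CREB in 2 lists. Just outside lay E230001N04Rik at 4973 bp with 2 lists, Gm15283 at 4885 bp with 1 list and Gm10910 at 4819 bp with 3 lists.

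Curated genes carried more of the signal than computed gene models. Of 2004 isolated lncRNA genes with a curated RefSeq transcript, 2.5% (1.86 to 3.28) had CREB in any list, against 0.611% (0.44 to 0.825) of 6878 genes known from models. Among genes with H3K4 these shares were 17.0% (12.6 to 22.2) and 7.23% (4.64 to 10.7). Of the 92 CREB-marked genes 54.3% (43.6 to 64.8) were curated, as were 41.6% (37.2 to 46.0) of the 505 genes with H3K4 alone and 21.1% (20.2 to 21.9) of the 8285 genes with neither. Median gene length was 5750, 7123 and 9032 bp in these groups. By symbol, 57 of the 92 were numbered Gm genes, 20 were Rik clones, 1 was a LOC entry and 14 had another symbol.

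Where the strand was known, CREB lay at the start of the gene rather than at its 3′ end. Of 5988 isolated lncRNA genes with a known strand and a length over 2000 bp, 51 had CREB at the start alone, 8 at the 3′ end alone and 2 at both. H3K4 had the same asymmetry, with 338, 36 and 6 genes. The 3′-end genes were Gm14486, Gm39842, Rap1gapos, Gm35752, Bcas3os2, 6030469F06Rik and Gm36715, each in 1 list, and 5730412P04Rik in 2. Around the starts of all 6638 genes with a strand, midpoints within 1000 bp numbered 8, 58 and 33 for CREB, in stage order, and 445 for H3K4. Between 1000 and 4000 bp from the start, which is 3 times the length, there were 2, 26 and 15 CREB midpoints and 230 H3K4 midpoints. Around the 3′ ends of the same genes there were 13 E16.5 midpoints within 1000 bp and 39 between 1000 and 4000 bp, and 75 and 297 for H3K4.

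**Figure D3:**
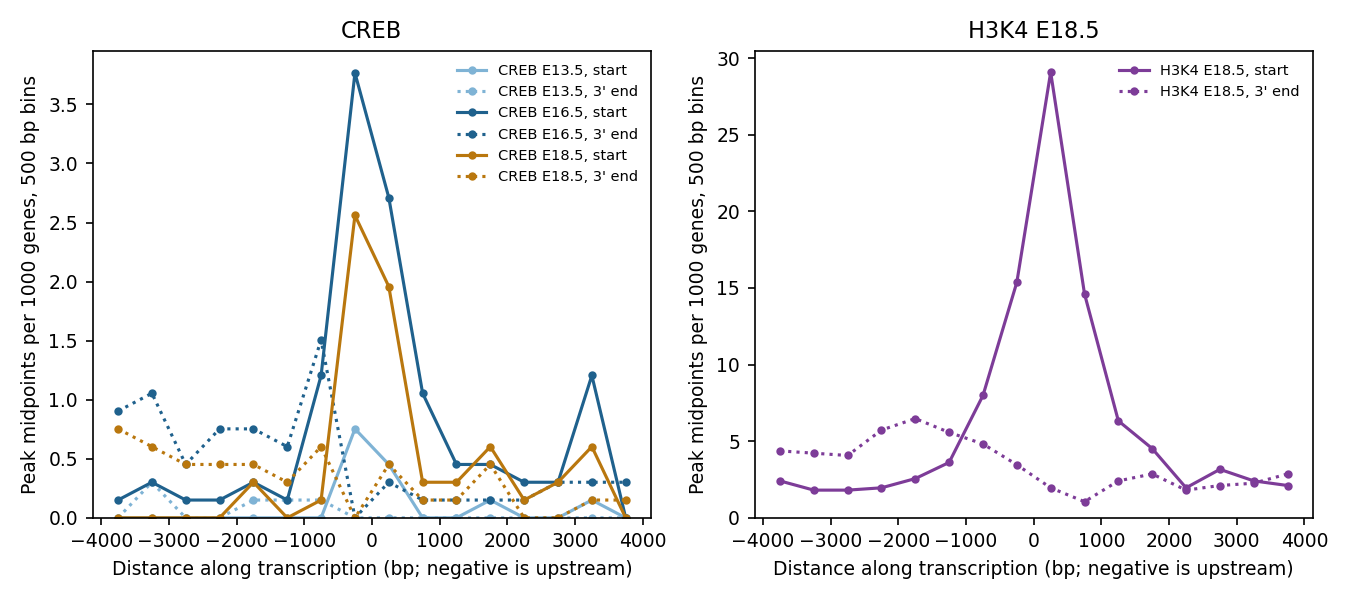
Peak midpoints per 1000 isolated lncRNA genes in 500 bp bins (y axis) by distance along transcription from the gene start (solid) or the 3′ end (dotted) in bp (x axis), for CREB (left) and H3K4 (right), over 6638 genes with a known strand. CREB midpoints gather at the start, 58 of them within 1000 bp at E16.5 and 33 at E18.5, against 13 and 8 within 1000 bp of 3′ ends.

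CREB marked 10 isolated lncRNA genes at all 3 stages, and these are given first. 1810044D09Rik and 4930471M09Rik lie back to back on chromosome 6 with 132 bp between their starts, and 1 peak in each list served both. That peak lay at chr6:91440950-91441109 at E18.5, with an H3K4 midpoint 2 bp away. Its midpoint was 18 bp outside the 1810044D09Rik start at E13.5, 31 bp outside at E16.5 and 42 bp inside at E18.5. The window printed above holds a full CRE 48 bases upstream of that start, inside the E13.5 and E16.5 peaks, and a partial site 19 bases upstream inside the peaks of all 3 stages. Counted from 4930471M09Rik the full CRE stands 92 bases upstream. The functions of these genes are not given in the annotation used.

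From here on, midpoints of genes with all 3 stages are given from E13.5 to E18.5. Gm2885 (chr17:6798383-6828016, minus strand) had CREB midpoints 19, 110 and 53 bp outside its start, and an H3K4 peak overlapped the E18.5 CREB peak. At 5730405O15Rik (chrX:13042015-13045295, plus) the midpoints were 109, 62 and 132 bp outside the start. Its window carries partial sites 106 and 62 bases upstream, both inside the peaks of all 3 stages. Gm36445 (chr13:65241515-65250166, plus) had CREB 166, 208 and 186 bp outside its start, with partial sites 231 and 196 bases upstream under the peak at each stage. In these 3 genes the CREB midpoints thus lay upstream of the start at every stage, and some of the peaks span it.

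At 2 further genes the midpoints lay past the start. Gm46589 (chr17:57096120-57099708, plus) had CREB 96, 113 and 164 bp inside the gene, and its window, shown above, holds neither a full CRE nor a partial site. B930059L03Rik (chr12:110591374-110592679, plus) had CREB 78, 190 and 172 bp inside, and an H3K4 midpoint 190 bp outside. Its window also holds no such letters, which says only that they are not in those 300 bases. At both genes the E18.5 peak lay wholly past the window and the earlier peaks reached past it, so that sequence was not searched. Gm52329 on chromosome 18, whose strand is not in the tables used, had CREB 71, 61 and 47 bp outside its right-hand end and H3K4 463 bp inside.

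The remaining 2 of the 10 lay inside protein-coding genes. Gm30189 (chr2:174320906-174327387) lies within Gnas, the gene of the stimulatory G protein subunit that couples hormone receptors to cAMP synthesis. CREB stood 150, 217 and 150 bp outside its right-hand end, with the E18.5 peak at chr2:174327458-174327617, 211 bp from an annotated Gnas start and 32622 bp from the nearest H3K4 midpoint. It was the single gene of the 10 without H3K4 at the marked end. Gm19605 lies within Ppp2r5c, which encodes a regulatory subunit of protein phosphatase PP2A, on the minus strand. Its CREB midpoints were 431, 373 and 334 bp inside the gene, and the E18.5 midpoint was 53 bp from an annotated Ppp2r5c start. At both genes the peak could belong to the lncRNA or to its host, and these cannot be told apart here.

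A further 32 isolated lncRNA genes had CREB at E16.5 and E18.5 and none at E13.5, and the 15 with the closest E18.5 midpoint are given in full. Kcnq1ot1, the imprinted antisense RNA inside Kcnq1, had CREB 43 bp outside its start at E16.5 and 46 bp outside at E18.5, where the peak was chr7:143296514-143296673. The partial site in its window stands 42 bases upstream, 3 and 6 bp from the E16.5 and E18.5 midpoints. H3K4 lay 830 bp inside the gene, and its peak did not touch the CREB peak. No CREB peak was listed there at E13.5.

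Outside protein-coding genes, Gm36183 on chromosome 13 had its E18.5 midpoint at the end itself (0 bp) and its E16.5 midpoint 48 bp outside, with H3K4 51 bp outside. Gm33560 on chromosome 7 had CREB 43 and 32 bp outside its start at E16.5 and E18.5, with a partial site 15 bases downstream of the start under both peaks. Gm26901, which is 141009 bp from any protein-coding gene end, had CREB 215 bp inside at E16.5 and 55 bp outside at E18.5. These genes had H3K4 at the same end.

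AA388235 on chromosome 17 had CREB 31 and 94 bp outside its start at E16.5 and E18.5. At D130051D11Rik on chromosome 15 CREB lay 79 bp outside at E16.5 and 140 bp inside at E18.5. 9430091E24Rik, which overlaps Pdpr in part, had CREB 104 and 129 bp outside its start. The full CRE in its window, 134 bases upstream, was 1 bp from the E18.5 midpoint and 26 bp from the E16.5 midpoint.

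The other 9 of these 15 genes lay inside a protein-coding gene, Kcnq1ot1 among them. Gm15743 lies in Bdh1, a ketone body enzyme gene, with CREB 60 bp outside its start at E16.5 and 17 bp inside at E18.5. Gm38737 in Usp42 had CREB 44 and 29 bp inside, Gm10369 in Limk1, a kinase gene of actin dynamics, 128 and 38 bp inside, and 1700028E10Rik in Stard13 263 and 86 bp outside. Gm42303 in Ptprd, 509655 bp from the nearest protein-coding gene end, had CREB 20 and 41 bp inside and was the 1 gene of the 15 without H3K4 at the marked end.

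Gm33409, Gm40345 and Gm31356 had E18.5 midpoints close to an annotated start of their host gene. For Gm33409 in Pdpk1, a kinase gene of insulin signalling, the distance to the host start was 54 bp and to its own start 85 bp. For Gm40345 in Por, which encodes the reductase that passes electrons to microsomal cytochrome P450 enzymes, it was 209 bp to the host start and 115 bp to its own. For Gm31356 in Gpam, an acyltransferase gene of triglyceride synthesis, it was 128 and 134 bp.

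**Figure D4:**
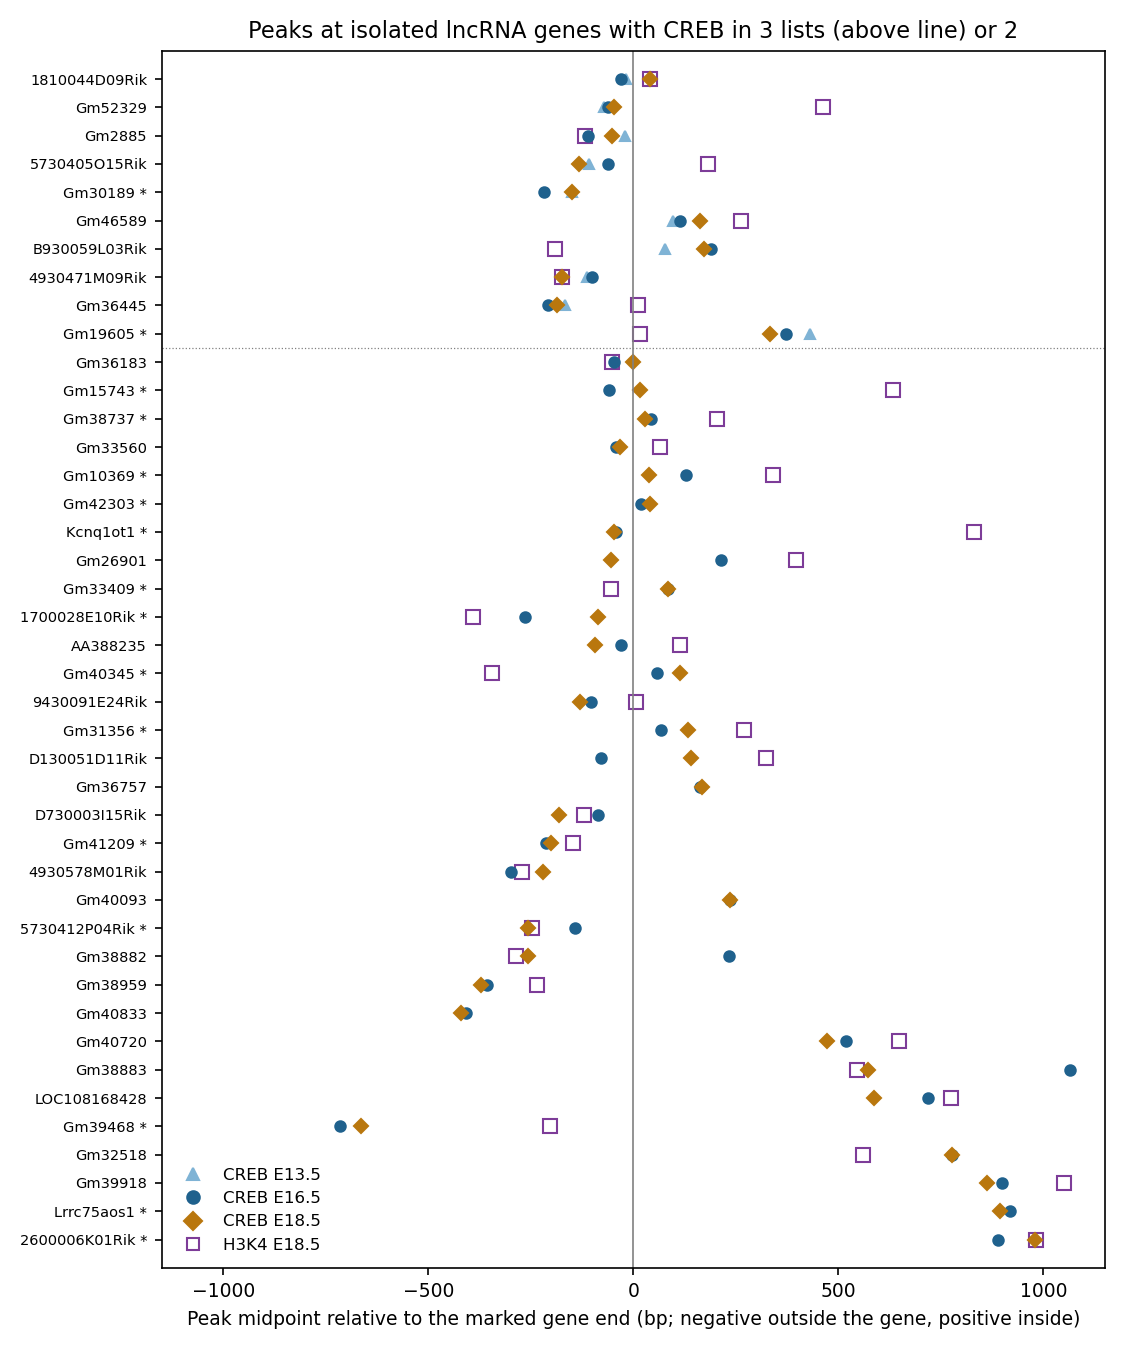
Midpoint of each peak relative to the marked gene end in bp (x axis, negative outside the gene) for the 42 isolated lncRNA genes with CREB in 3 lists (above the dotted line) or 2 lists (below); filled symbols are CREB by stage, open squares H3K4, and an asterisk marks genes inside a protein-coding gene body. At the 10 genes above the line the CREB midpoints of the stages lie close together, between 431 bp inside and 217 bp outside the gene.

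The other 17 genes with CREB at both later stages had E18.5 midpoints 168 to 979 bp from the end, with H3K4 at the same end of 13. They were Gm36757, D730003I15Rik, Gm41209, 4930578M01Rik, Gm40093, 5730412P04Rik, Gm38882, Gm38959, Gm40833, Gm40720, Gm38883, LOC108168428, Gm39468, Gm32518, Gm39918, Lrrc75aos1 and 2600006K01Rik. Without H3K4 were Gm36757, Gm40093, Gm40833 and Lrrc75aos1. Of these, 5 lay inside a protein-coding gene, among them 5730412P04Rik (in Nxf3), Gm39468 (in Sdk2), Lrrc75aos1 (in Lrrc75a) and 2600006K01Rik (in Cercam). Gm38882 and Gm38883 overlap and share a peak.

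CREB at E16.5 alone was found for 45 genes, with H3K4 at the marked end of 24 and a median distance of 509 bp. The 13 inside a protein-coding gene were Gm39084, 2900060B14Rik, Hk1os, Gm26744, Gm38560, Gm31308, Peg13, Gm31231, Gm41773, 4930447N08Rik, Gm36715, Gm40338 and Rap1gapos, of which 6 had H3K4. Those overlapping one in part were Trmt61b (typed as lncRNA in the gene table), Airn and Meg3, each with H3K4. The 29 outside were 5033406O09Rik, Gm14321, Gm30419, 1300002E11Rik, Gm5493, Gm40122, Gm34726, Pvt1, Gm33622, Gm32287, 1700096K18Rik, 1700066J03Rik, Gm11205, Gm10433, Gm39842, Malat1, Gm15201, Gm34081, Gm35752, Gm14486, Gm34507, Gm52778, Neat1, 6030469F06Rik, Gm10787, Gm41758, C030034I22Rik, Gm30632 and Gm46356, of which 15 had H3K4. CREB at E18.5 alone was found for AU020206, 4833415N18Rik and Gm35239 outside and for Gm36157 (in Epb41) and Bcas3os2 (in Bcas3) inside a protein-coding gene, 24 to 1001 bp from the end.

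The share of genes marked at E16.5 that were listed again at E18.5 was smaller for isolated lncRNA genes than for the other classes, with no test possible between them. Of the 87 isolated genes in the E16.5 list, 42 were in the later list too, 48.3% (37.4 to 59.2). This compares with 73.0% (68.5 to 77.2) for non-isolated lncRNA genes and 74.4% (72.9 to 75.9) for protein-coding genes. Among genes with H3K4 the shares were 58.1% (44.8 to 70.5), 74.1% (69.4 to 78.4) and 75.2% (73.6 to 76.7). There the interval of the isolated genes overlapped that of the non-isolated lncRNA genes. In the other direction, 89.4% (76.9 to 96.5) of isolated genes with CREB at E18.5 had it at E16.5, against 85.8% and 86.4% in the other classes, and the intervals overlapped. Of the 45 genes marked at E16.5 alone, 2 had a CREB midpoint of another stage within 2000 bp of the peak, namely Neat1 at 429 bp and 5033406O09Rik at 1709 bp. Of the 5 genes marked at E18.5 alone, 1 had such a midpoint, Gm35239 at 493 bp. For Neat1 and Gm35239 a single stage can depend on the edge of the region. The midpoint near 5033406O09Rik is that of the E18.5 peak listed for Gm36757, where an E16.5 peak was listed as well. No E18.5 peak was listed at the 5033406O09Rik peak itself. Peak width differs between these lists, and stage is confounded with library.

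H3K4 stood at the CREB-marked end of most of these genes. It was present at 64 of 92, 69.6% (59.1 to 78.7). Counted separately, an H3K4 peak directly overlapped the CREB peak at 43 of the 92. These include Gm36715, which had no H3K4 within 1000 bp of its marked end. By number of CREB lists it was present at 9 of 10 genes with 3 lists (90.0%, 55.5 to 99.7), at 27 of 32 with 2 (84.4%, 67.2 to 94.7) and at 28 of 50 with 1 (56.0%, 41.3 to 70.0). At E18.5, the stage of the H3K4 library, 40 of 47 genes with CREB had it, 85.1% (71.7 to 93.8). The other classes had larger shares, but H3K4 was also more frequent over all their genes, with or without CREB. It was at 6.43% of isolated lncRNA genes, 41.8% of non-isolated lncRNA genes and 52.7% of protein-coding genes. The part of these class shares in the counts that follow was not tested. Counting either end and any CREB list, H3K4 was at 66 of the 92 isolated genes and 428 of 465 non-isolated lncRNA genes. Among protein-coding genes it was at 3471 of 3656. For CREB at E18.5 the counts were 329 of 353 non-isolated lncRNA genes and 2698 of 2817 protein-coding genes. The share of the non-isolated lncRNA genes lay inside the interval of the isolated genes, 71.7 to 93.8%. Distances from midpoint to end were taken at E18.5 where listed and otherwise at E16.5. Their medians were 157 bp for genes in 3 lists, 174 bp in 2 and 498 bp in 1. All genes in 2 or 3 lists had CREB at E18.5, while 45 of the 50 in 1 list had it at E16.5 alone. H3K4 was at the marked end of 24 of these 45 and of 4 of the 5 with E18.5 alone. List number is thus confounded with stage and with peak width, 630 bp at E16.5 and 160 bp at E18.5.

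CREB shares of genes inside protein-coding gene bodies and of those outside had intervals that overlapped. CREB in any list was found at 31 of 2163 genes inside, 1.43% (0.976 to 2.03), at 4 of 234 that overlap in part, 1.71% (0.468 to 4.32), and at 57 of 6485 outside, 0.879% (0.666 to 1.14). H3K4 was found at 6.93% (5.90 to 8.09), 14.5% (10.3 to 19.7) and 5.97% (5.40 to 6.57). The marked end carried H3K4 at 21 of 31 CREB-marked genes inside, 67.7% (48.6 to 83.3), and at 39 of 57 outside, 68.4% (54.8 to 80.1). The CREB midpoint was within 1000 bp of an annotated protein-coding start for 9 of the 30 genes inside a body that could be checked. Besides Gm30189, Gm19605, Gm33409, Gm40345 and Gm31356 these were 2600006K01Rik at 163 bp from a Cercam start, Hk1os at 59 bp from a start of Hk1, a hexokinase gene, Gm36157 at 184 bp from an Epb41 start and Gm38560 at 92 bp from a start of Txnrd1, a thioredoxin reductase gene. The isolation rule counts the outer ends of protein-coding genes alone, and the table of starts does not hold every gene, so 9 is a lower count. Outside a body the rule itself keeps such starts away, so no comparison is made.

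Other noncoding genes had an end within 1000 bp of the peak at 15 of the 92 genes. Another lncRNA was there at 10, a tRNA gene at 5 and snRNA genes at 1, and Gm38959 had both a lncRNA and a tRNA gene. The tRNA genes were n-TQttg6 at Gm38959, n-TYgta7 at Gm40833, n-THgtg4 at Gm39918, n-TCgca52 at Trmt61b and n-TTcgt3 at Gm11205. Gm14321 and Gm32287 overlap by 437 bp and shared 1 E16.5 peak, and Meg3 and Gm34081, which are 846 bp apart, shared another.

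The share of promoters with a full CRE was larger for CREB-marked genes than for other isolated lncRNA genes. Promoter windows were available for 6638 isolated lncRNA genes, 74 of them CREB-marked, with 1 window per gene. A full CRE stood in 10 of the 74 (95% interval of the share 6.68 to 23.5%), against 2 of 388 with H3K4 and no CREB, 0.515% (0.0625 to 1.85), and 37 of 6176 with neither, 0.599% (0.422 to 0.825). Over all 27025 promoters of the table it stood in 1.85% (1.70 to 2.02). Among protein-coding genes it stood in 9.44% (8.43 to 10.5) of those with CREB and 0.647% (0.465 to 0.877) of those with H3K4 alone. Where a CREB peak overlapped the promoter window itself, the share was 21.3% (10.7 to 35.7) of 47 isolated lncRNA promoters and 10.7% (9.62 to 11.9) of 2811 protein-coding promoters, and these intervals overlapped.

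Counting partial sites, full CREs included and both strands read, 45.9% (34.3 to 57.9) of CREB-marked isolated lncRNA promoters held one. The share was 14.7% (11.3 to 18.6) with H3K4 alone, 13.1% (12.3 to 14.0) with neither and 20.9% (20.5 to 21.4) over all promoters. Protein-coding promoters with CREB held one in 54.2% (52.4 to 56.0) of cases. CpG content moved with these groups, since median CpG counts per window were 10 in CREB-marked isolated lncRNA promoters, 8 with H3K4 alone and 3 with neither, and median GC content was 55.2%, 52.7% and 46.7%. Partial sites and the full CRE contain a CpG, and the part of CpG content in the shares of either was not tested. Protein-coding promoters had a median of 22 CpGs with CREB and 21 with H3K4 alone, where their full CRE shares were 9.44% and 0.647%.

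**Figure D5:**
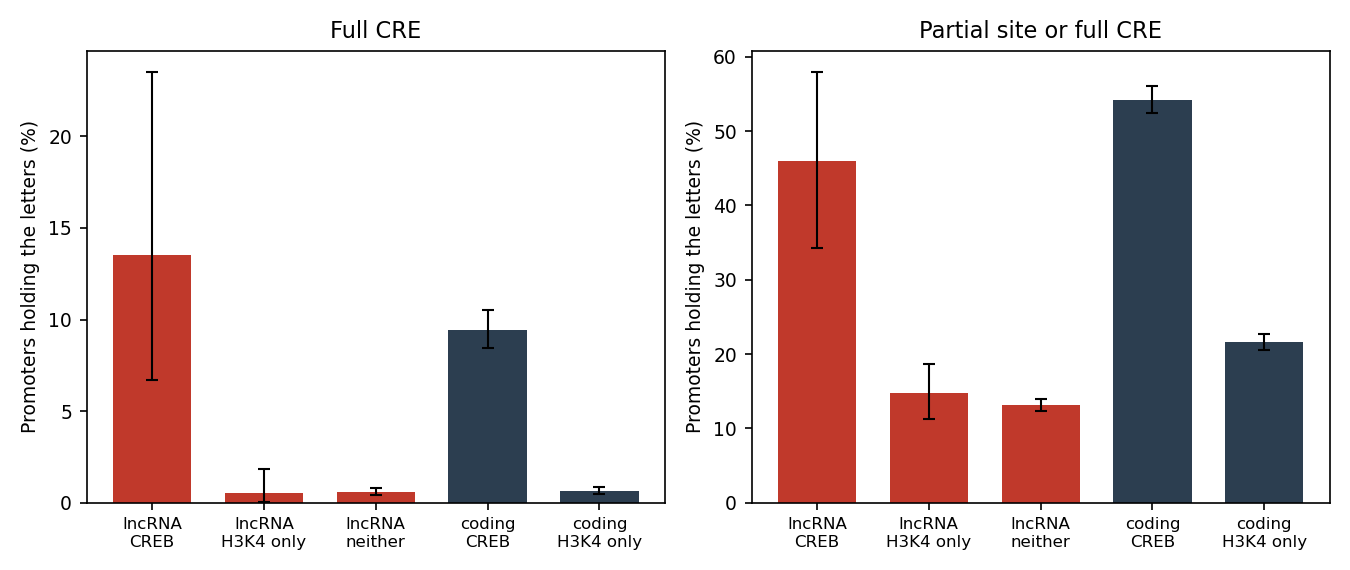
Share of promoter windows (percent, y axis) that hold the full CRE (left) or at least a partial site (right), for isolated lncRNA genes with CREB, with H3K4 alone and with neither, and for protein-coding genes with CREB and with H3K4 alone; lines are exact 95% binomial intervals. Full CREs stand in 10 of 74 CREB-marked isolated lncRNA promoters and in 0.515% and 0.599% of the other isolated groups.

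The 10 promoters with a full CRE hold 9 distinct sites, 8 of which lay inside a CREB peak. These 8 all lay under an E16.5 peak, and only that of 9430091E24Rik lay under an E18.5 peak too. E16.5 peaks are 630 bp wide and can cover most of a 300-base window, so lying inside one locates a site only loosely. The 9 sites stand 17 to 202 bases upstream of the start. At E16.5 the site was 0 bp from the peak midpoint at Gm30419, 7 bp at Gm26744, 53 bp at Gm39084, 65 bp at Meg3, 110 bp at 1300002E11Rik and 153 bp at Gm14321. The ninth site, 122 bases upstream of Gm32287, lay under no CREB peak. Of the 10 promoters 7 belong to genes marked at E16.5 alone, which is 20.6% (8.70 to 37.9) of the 34 such genes with a window, and 3 to the 35 genes with 2 or 3 lists, 8.57% (1.80 to 23.1). Sites under the CREB peak were thus present at genes of a single list as well. Gm30419 and Gm39084 had a full CRE under the CREB peak and no H3K4 at that end.

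Known lncRNA genes that meet the isolation rule were grouped in 4 lists. Of 6 imprinted genes 4 had CREB and 5 had H3K4, beside 1.04% and 6.43% of all isolated lncRNA genes. Among isolated lncRNA genes with a curated transcript, as all CREB-marked genes of these lists are, the shares were 2.5% and 12.6%. The lists were chosen with earlier results known. Besides Kcnq1ot1, those with CREB were Meg3, the maternally expressed RNA of the Dlk1-Dio3 domain, Airn, the antisense RNA of the Igf2r domain, and Peg13, which lies inside Trappc9. Each of these had CREB at E16.5 alone. The Meg3 peak (chr12:109540563-109541192) had its midpoint 118 bp outside the start, and the window above holds a full CRE 57 bases upstream inside that peak. At Airn the peak (chr17:12741105-12741734) lay 108 bp inside the start. Its window, which covers this peak only in part, holds no partial site. Peg13 had CREB 486 bp inside its right-hand end and H3K4 545 bp inside. H19 had H3K4 without CREB, and Mirg had neither.

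Of the nuclear and X inactivation RNAs 2 of 6 had CREB and 3 had H3K4, beside the same 1.04% and 6.43%, or 2.5% and 12.6% of curated genes. Malat1, an abundant RNA of nuclear speckles, had an E16.5 peak 635 bp outside its start, and Neat1, the scaffold RNA of paraspeckles, 1 with its midpoint 807 bp outside its right-hand end. Neither gene had H3K4 within 1000 bp of an end, and the nearest H3K4 midpoints were 14696 and 28284 bp from these peaks. Firre, Jpx and Ftx had H3K4 without CREB, and Xist had neither. Of 8 developmental lncRNAs 1 had CREB and 5 had H3K4, to be read against the same shares. Pvt1 had CREB at E16.5 (226 bp inside, with H3K4 210 bp inside). Lncpint, Oip5os1, Pantr2 and Tunar had H3K4 alone, and Hotair, Sox2ot and Mirt1 had neither.

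Genes listed as hosts of small RNAs, from which microRNAs or small nucleolar RNAs are processed, had no CREB in the isolated group. They were taken by symbol, mostly those that begin with Snhg or begin with Mir and end with hg. Whether each one hosts a small RNA was not checked. None of 17 had a peak in any of the 3 lists, and 4 had H3K4, namely Snhg5, Snhg17, Snhg20 and Mir99ahg. The others were Snhg7os, Snhg11, Mir17hg, Mir100hg, Mir124-2hg, Mir124a-1hg, Mir133a-1hg, Mir1a-1hg, Mir205hg, Mir217hg, Mir9-3hg, Mirc35hg and Rmst. Of 19 such hosts nearer to a protein-coding gene end, 10 had CREB in at least 1 list, where 12.1% of all non-isolated lncRNA genes did. Most of these 19 had H3K4, and among non-isolated lncRNA genes with H3K4 the CREB share was 26.6%. Their regions can also hold the end of a protein-coding gene, which lay 118 bp away at Snhg1. The exact interval of 0 of 17 reaches 19.5%, so a difference from the 1.04% of all isolated lncRNA genes was not detectable.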

How the data were processed

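CUT&RUN libraries of male gonads, with 100000 cells per assay after a 70 µm filter per the labels, were grouped by antibody and stage, 1 library each. The authors' deposited files are peak lists of 3 columns (chromosome, start, end) in mm10, with no score or read count, so peaks were not ranked and depth is unknown. Tools named in the submitters' processing notes are MACS2, Bowtie2 2.5.2 and Trim Galore 0.6.10. Settings of the peak calling, or a control for it, were not given in the sources used. Gene spans, starts and promoter windows came from RefSeq tables for GRCm38.p6. Windows were matched by gene ID, 1 per gene (nearest the outer 5′ end), and gave the strand of 6638 of the 8882 genes. Overlaps used Python 3.11.15, numpy 2.4.6, pandas 2.3.3 and scipy 1.17.1, figures matplotlib 3.10.9, and the code was tested on simulated peaks. Positions are 1-based. Members and lists were chosen with earlier results of these data known. Every CREB-marked gene is named, and full values are given for up to 25, ordered by list number and then distance. A few marker and host genes are not reported here. Alternatives varied region width, isolation, overlap, peak width and the genes counted.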

Additional observations from a re-analysis of the deposited data

How the results depend on the processing

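Of 69 values recomputed under 12 alternatives, 56 stayed inside the 95% interval of the value reported and 13 moved outside it. With curated transcripts only, CREB shares were 0.449%, 2.35% and 1.30% in stage order and 0.449% in all 3 lists, and H3K4 was at 12.6%. With isolation by 10000 bp the shares were 0.785% at E16.5, 0.379% at E18.5 and 5.59% for H3K4. H3K4 was at 4.84% and 8.43% with regions of 500 and 2500 bp, 7.27% with isolation by 2000 bp, 5.58% with isolation from any other gene and 5.77% with isolation also from protein-coding starts inside genes. The last, and isolation from tRNA genes, were added after seeing the data. The share of CREB-marked genes with H3K4 at the same end stayed between 63.1% and 73.2% in the alternatives run for it. Setting every peak to 150 bp left 84 genes with CREB at E16.5 and 47 at E18.5. No paired analysis was possible because each group holds 1 library. Depth is unknown, so a gene without a listed peak may still carry signal.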
